A study of Mus musculus with 4 samples.

Results

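The genes of cholesterol handling described here are 33 listed genes of cholesterol synthesis, its control, uptake, transport and efflux, measured in mouse bone marrow-derived macrophages. They were chosen by gene symbol, and each was represented by its brightest probeset that the platform annotation gives a single symbol. By this rule 30 of the 33 were found among the 19938 genes of the arrays. Acat2, Nr1h2 and Soat1 had no probeset under their symbol and have no values here.

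Macrophages were grown from bone marrow for 7 days with 10% supernatant of L929 cells, a fibroblast line that secretes M-CSF. After replating they spent 24 h either in plain medium or with added IL-4, called untreated and treated below, and were sorted on F4/80, a macrophage surface protein. The 4 groups, each measured on 1 array, were BALB/c wild-type cells and 4get/Stat6-/- cells, both untreated and treated. Stat6, which the 4get/Stat6-/- cells lack, carries the signal of the IL-4 receptor to the nucleus, and 4get is a reporter allele of IL-4 transcription that the controls do not carry in their label, so that loss of Stat6 and the 4get allele cannot be told apart. The sources used here do not give the age and number of the mice or the strain background of 4get/Stat6-/-. For the IL-4 dose the sample labels give 10 µg/mL, while the text on the series gives 10 mg/mL. Since every group is 1 array, no value below has a replicate error, no p-value was computed, and precision is limited by the number of arrays.

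Cells make cholesterol from acetyl-CoA. The mevalonate arm of the pathway ends in farnesyl diphosphate, and the sterol arm turns this into squalene, lanosterol and cholesterol. The enzymes share control by SREBP-2, encoded by Srebf2. Scap escorts SREBP proteins to the Golgi for activation when sterols are low, while the Insig proteins hold them back in the endoplasmic reticulum when sterols are high. Oxysterols act the other way through the liver X receptors (LXR), which induce the exporters Abca1 and Abcg1 and the ubiquitin ligase Mylip. Macrophages take up large amounts of cholesterol from cells and lipoproteins they engulf.

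The promoter sequences of 4 members are shown because these genes stand for the patterns described below. Hmgcs1 and Srebf2 are the members whose window held the 8-base core of the sterol element, Idi1 rose with IL-4 without that core, and Mylip fell. Each runs 5′ to 3′ from 250 bases before to 50 bases after the start site, from RefSeq in build GRCm38.p6. Capitals mark TCACCCCA, the core of the element to which SREBP binds, and CCAAT, the box bound by NF-Y, each on either strand, so that CCAAT can also read as ATTGG. The windows lie at chr13:119690101-119690400 for Hmgcs1, chr15:82147019-82147318 for Srebf2, chr13:8885356-8885655 for Idi1 and chr13:45389492-45389791 for Mylip, all on the plus strand.
Hmgcs1: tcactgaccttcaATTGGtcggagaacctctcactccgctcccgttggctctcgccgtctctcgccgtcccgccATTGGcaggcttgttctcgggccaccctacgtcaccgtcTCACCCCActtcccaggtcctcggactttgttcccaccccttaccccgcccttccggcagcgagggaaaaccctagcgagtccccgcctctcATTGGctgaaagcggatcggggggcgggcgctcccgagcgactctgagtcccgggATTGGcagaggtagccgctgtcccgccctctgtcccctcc
Srebf2: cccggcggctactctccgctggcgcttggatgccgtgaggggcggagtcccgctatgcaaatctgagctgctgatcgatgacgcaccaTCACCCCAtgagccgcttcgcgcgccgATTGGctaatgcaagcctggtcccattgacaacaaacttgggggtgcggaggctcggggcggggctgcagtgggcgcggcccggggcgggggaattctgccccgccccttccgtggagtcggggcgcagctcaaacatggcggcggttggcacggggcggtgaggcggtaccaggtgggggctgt
Idi1: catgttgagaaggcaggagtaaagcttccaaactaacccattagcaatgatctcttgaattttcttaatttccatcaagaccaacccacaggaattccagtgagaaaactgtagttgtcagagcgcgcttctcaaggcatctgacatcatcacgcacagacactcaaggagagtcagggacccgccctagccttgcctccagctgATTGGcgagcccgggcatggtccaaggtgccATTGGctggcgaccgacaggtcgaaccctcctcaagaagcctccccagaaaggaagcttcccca
Mylip: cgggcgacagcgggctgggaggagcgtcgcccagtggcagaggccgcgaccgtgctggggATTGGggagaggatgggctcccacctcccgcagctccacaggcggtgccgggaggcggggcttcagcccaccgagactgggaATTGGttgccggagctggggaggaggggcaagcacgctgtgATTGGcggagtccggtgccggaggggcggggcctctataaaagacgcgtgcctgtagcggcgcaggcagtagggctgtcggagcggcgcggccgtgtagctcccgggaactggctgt

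Of the 33 genes, 27 had 36 such windows, while Fdps, Fdft1, Sqle, Stard4, Abcg1 and Npc1 had none in the table. The core TCACCCCA was in the windows of Hmgcs1 and Srebf2 and in 1.56% of all 32851 windows. CCAAT was in 63.9% of the members' windows and in 37.4% of all windows. It was in all 8 windows of members that rose with IL-4 in wild type and in 14 of the 25 windows of the other members on the arrays. By gene, this is 8 of 8 against 13 of 16, since several of the others have more than 1 window. The GC box GGGCGG was in 27 of the members' 36 windows and in 35.7% of all windows. It was in 62.3% of the windows of genes above the floor defined below, which are richer in G and C (median 60.7% against 52.7%). The GC box split much as CCAAT did, in all 8 windows of members that rose and in 17 of the other 25. By gene this is again 8 of 8 against 13 of 16. A palindrome of TTC and GAA with 4 bases between them, a form bound by STAT6, was in 1 window of Srebf1 as TTCCGGGGAA, in 1 of Ggps1 as TTCTATGGAA and in 6.95% of all windows. No member window held the LXR motif, AGGTCA repeated after 4 bases, which was in 0.0152% of all windows. A variant of the sterol core, TCACNCCAC, was in the window of Hmgcs1 alone and in 1.24% of all windows. The E-box, CACGTG, was in 7 of the members' 36 windows and in 7.15% of all windows. Of windows of genes above the floor, 10.2% held it. It was in 1 of the 8 windows of members that rose and in 6 of the other 25. The sterol element, the palindrome and the LXR motif have many looser forms, most of them not searched. A match describes these letters only, and the motifs were searched with the expression values known.

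Signals below are log2 RMA values. A difference is one such value minus another, so that 1 is 2-fold. A gene is said to have risen or fallen, or to be higher or lower by the rule, where the difference was at least 1 and the brighter array reached a floor of 2.52, the median of all single-gene probeset values. The signals of all 30 members lay above that floor on all 4 arrays, the lowest at 2.67. The floor is not a limit of detection, since markers of other cell types also passed it, Ccr3 at up to 4.28. Whether the dimmer signals stood above background was not tested. RMA draws low signals together and can understate differences of dim genes.

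Stat6 itself was lower on both Stat6-/- arrays, at 4.54 in medium and 4.25 with IL-4, than on the wild-type arrays, at 7.34 and 6.68, in the direction of the labels. Of 10 listed macrophage markers 9 were on the arrays and above the floor on all 4. Their summed signal, on the log2 scale, was 13.42 in untreated wild type, 12.82 in treated wild type, 13.26 in untreated Stat6-/- and 13.27 in treated Stat6-/-. With IL-4 in wild type 4 of the 9 fell, Cd14 (-2.74), Fcgr1 (-1.76), Mertk (-1.36) and Adgre1 (-1.21), the gene of F4/80, where 6.78% of all genes tested fell. In Stat6-/- 0 of 9 passed the rule, where 0.355% of all genes did. Markers of 9 other cell types, 46 genes in all, gave summed signals between 2.96 and 5.23 per list and array, with 11 of the 46 above the floor on at least 1 array. Of these, 5 were above it on all 4 arrays: Cd79b of B cells, Ccr3 of eosinophils, and Col1a1, Col1a2 and Col3a1 of fibroblasts, the highest at 4.28 (Ccr3). Other markers of the same types, Cd79a and Ms4a1, Epx and Prg2, and Dcn and Lum, were under the floor on all arrays. Ccr3 was lower in untreated Stat6-/- than in untreated wild type (-1.02), and Ngp, a gene of neutrophil precursors, fell with IL-4 in wild type (-1.04). The part of these marker shifts in the results below was not tested, and in such bulk RNA fewer cells of a kind and less RNA per cell cannot be told apart.

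IL-4 against medium in wild type asks how the cytokine moves this pathway where Stat6 is present. Most enzymes from acetyl-CoA to the early sterols were higher with IL-4, among them Sqle, Fdps and Cyp51, while the ubiquitin ligase Mylip was lower. Of the 30 members, 11 rose and 1 fell, where 9.74% of all 10282 genes tested passed the rule, 2.96% upward and 6.78% downward. All 10 enzymes that rose lay among the 17 of the mevalonate and sterol arms, whose median difference was 1.06 against -0.11 over all genes tested. Outside these arms 1 of 13 members rose, Srebf2, and 1 fell, Mylip, with a median of -0.20. The median over all members was 0.87. When the arrays were quantile normalized again the median of all genes tested moved from -0.11 to 0.02, and 403 rose and 488 fell in place of 304 and 697. Increases thus made up 45.2% of the calls in place of 30.4%.

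**Figure D1:**
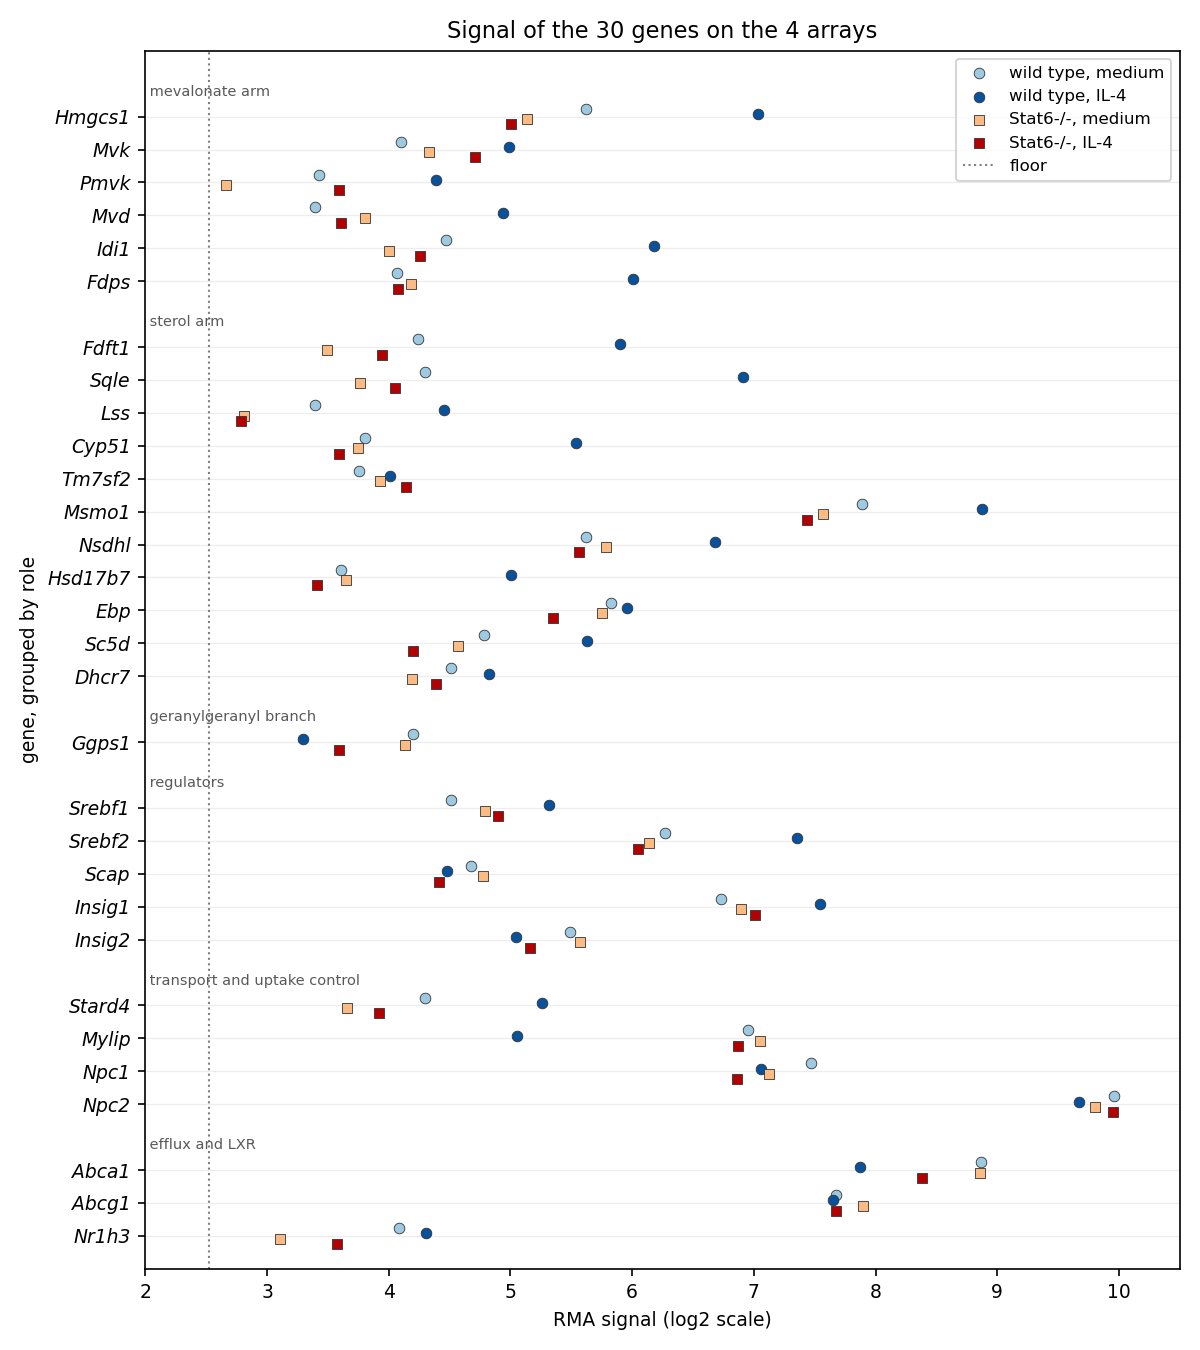
RMA signal (log2 scale, horizontal axis) of the 30 genes on the 4 arrays, grouped by role, with circles for wild type, squares for Stat6-/-, pale symbols for medium and dark ones for IL-4; the dotted line is the floor of 2.52 and symbols are staggered vertically for legibility. The dark blue circle of wild type with IL-4 lies to the right of the other arrays for 16 of the 17 genes of the mevalonate and sterol arms and far to the left for Mylip.

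In the mevalonate arm 4 of 6 measured genes rose in wild type. Hmgcs1, which makes HMG-CoA, had signals of 5.62 in untreated wild type, 7.03 in treated wild type, 5.14 in untreated Stat6-/- and 5.00 in treated Stat6-/-. It rose 2.66-fold in wild type, and the other 3 arrays spanned 0.62. Mvd, which forms isopentenyl diphosphate, had signals of 3.40, 4.94, 3.80 and 3.60 in the same order and rose 2.91-fold. Each of these genes thus had a single high array, treated wild type, and 3 lower ones.

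Fdps, which makes farnesyl diphosphate, had the arm's smallest spread outside treated wild type, at 4.06 in untreated wild type, 6.01 in treated wild type, 4.18 in untreated Stat6-/- and 4.07 in treated Stat6-/-. It rose 3.85-fold, while the other 3 arrays spanned 0.12. Idi1, the isomerase that makes the partner isoprenoid, had signals of 4.47, 6.18, 4.00 and 4.26 and rose 3.27-fold. A dimmer second probeset named Idi1 gave 3.86, 5.77, 3.79 and 3.97, with a difference of 1.92 in wild type and 0.18 in Stat6-/-, so both read alike.

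Mvk and Pmvk, the kinases that add phosphates to mevalonate, did not pass the rule. Mvk had signals of 4.10 in untreated wild type, 4.99 in treated wild type, 4.33 in untreated Stat6-/- and 4.71 in treated Stat6-/-. Its differences were 0.89 in wild type and 0.37 in Stat6-/-. Pmvk, at 3.42, 4.39, 2.67 and 3.59, differed by 0.97 in wild type and by 0.93 in Stat6-/-, so that the pair of IL-4 differences was 0.04 apart. Both kinases passed in wild type once the arrays were normalized again by quantiles, at 1.04 for Mvk and 1.08 for Pmvk.

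Ggps1 takes farnesyl diphosphate out of the sterol route to make geranylgeranyl diphosphate, which is attached to proteins. It ran the other way, at 4.20 in untreated wild type, 3.30 in treated wild type, 4.13 in untreated Stat6-/- and 3.59 in treated Stat6-/-. The differences of -0.90 and -0.54 did not pass the rule.

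In the sterol arm 6 of 11 genes rose in wild type, with a median of 1.06. Sqle, the squalene epoxidase and a rate-limiting enzyme of this arm, had signals of 4.30 in untreated wild type, 6.91 in treated wild type, 3.76 in untreated Stat6-/- and 4.05 in treated Stat6-/-. Its 6.12-fold rise was the largest among the members and ranked 29 among the 304 increases of all genes. Cyp51, which takes the first methyl group off lanosterol, had signals of 3.80, 5.54, 3.75 and 3.59 and rose 3.33-fold. On both genes wild type with IL-4 was the only high array.

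Fdft1, which joins farnesyl diphosphate into squalene, had signals of 4.24 in untreated wild type, 5.90 in treated wild type, 3.49 in untreated Stat6-/- and 3.95 in treated Stat6-/-. It rose 3.16-fold. Its second probeset, nearly as bright, gave 3.63, 6.17, 3.89 and 3.60, with a larger difference of 2.54 in wild type and one of -0.29 in Stat6-/-. Both probesets place wild type with IL-4 highest, and they differ in the order of the other arrays.

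Hsd17b7 and Nsdhl, which act in the removal of the methyl groups next to the sterol's hydroxyl, also rose. Hsd17b7 was at 3.60 in untreated wild type, 5.00 in treated wild type, 3.65 in untreated Stat6-/- and 3.41 in treated Stat6-/-, a rise of 2.63-fold. Nsdhl was at 5.62, 6.68, 5.79 and 5.56, a rise of 2.09-fold. The oxidase of the same step, Msmo1, was at 7.89, 8.88, 7.57 and 7.43, and its difference of 0.99 was just short of the rule, which it passed at 1.01 after renewed quantile normalization. Lss, which closes the rings to give lanosterol, was just past it, at 3.40, 4.46, 2.81 and 2.78, a rise of 2.09-fold.

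The last enzymes before cholesterol, and Tm7sf2, did not pass the rule. Sc5d, a desaturase, was at 4.78 in untreated wild type, 5.63 in treated wild type, 4.57 in untreated Stat6-/- and 4.20 in treated Stat6-/-, a difference of 0.84 in wild type. Dhcr7, which makes cholesterol from its last precursor, differed by 0.31, at 4.51, 4.82, 4.19 and 4.39. Ebp, a sterol isomerase, differed by 0.13, at 5.82, 5.95, 5.75 and 5.35. Tm7sf2, a sterol reductase, differed by 0.26, at 3.76, 4.01, 3.92 and 4.14, and was the 1 gene of both arms whose highest array was Stat6-/- with IL-4.

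Among the regulators Srebf2 rose, and the others did not pass the rule. Srebf2 had signals of 6.27 in untreated wild type, 7.35 in treated wild type, 6.13 in untreated Stat6-/- and 6.05 in treated Stat6-/-, a rise of 2.13-fold with the other 3 arrays spanning 0.22. Srebf1, which encodes SREBP-1, was at 4.51, 5.32, 4.79 and 4.90, a difference of 0.80. Scap, the escort, was at 4.68, 4.48, 4.77 and 4.41, a difference of -0.20.

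The retention factors Insig1 and Insig2 had wild-type differences of opposite sign. Insig1, itself a gene that SREBP proteins induce, was at 6.73 in untreated wild type, 7.55 in treated wild type, 6.89 in untreated Stat6-/- and 7.01 in treated Stat6-/-. Its difference was 0.82 in wild type and 0.12 in Stat6-/-. Insig2 was at 5.49, 5.05, 5.57 and 5.16, with differences of -0.44 and -0.42, nearly the same in both genotypes. None of these 4 differences passed the rule.

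Mylip marks lipoprotein receptors for degradation, and it was the 1 member that fell. Its signals were 6.95 in untreated wild type, 5.06 in treated wild type, 7.05 in untreated Stat6-/- and 6.87 in treated Stat6-/-, a 3.72-fold fall in wild type with the other 3 arrays within 0.18. Stard4, a carrier that moves cholesterol through the cytosol, was at 4.30, 5.26, 3.66 and 3.92, a difference of 0.95, and passed the rule after renewed quantile normalization, at 1.11. Mylip was thus low, and Stard4 high, on the array of wild type with IL-4.

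Npc1 and Npc2 release cholesterol from the lysosome. Npc1 was at 7.47 in untreated wild type, 7.06 in treated wild type, 7.12 in untreated Stat6-/- and 6.86 in treated Stat6-/-. Npc2 was at 9.96, 9.67, 9.80 and 9.95. Their wild-type differences of -0.42 and -0.28 did not pass the rule.

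The exporters differed from each other. Abca1, which loads cholesterol onto lipid-poor apolipoprotein, was at 8.87 in untreated wild type, 7.87 in treated wild type, 8.86 in untreated Stat6-/- and 8.38 in treated Stat6-/-. Its difference of -0.99 just missed the rule. The difference passed it at -1.02 after renewed quantile normalization and was smaller, -0.88, when the trend with intensity was removed. Abcg1, which exports to mature lipoprotein particles, was at 7.68, 7.65, 7.90 and 7.68, a difference of -0.02. Nr1h3, the LXR-alpha gene, was at 4.09, 4.31, 3.10 and 3.57, so that it set the genotypes apart more than the cultures.

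In Stat6-/- cells, 0 of the 30 members rose or fell with IL-4, where 0.355% of 10410 genes tested passed the rule, 0.24% upward and 0.115% downward. This comparison asks what IL-4 does to the pathway without Stat6. The members' median was -0.12 and that of all genes tested -0.05. The 17 genes of the mevalonate and sterol arms had differences between -0.40 and 0.93 with a median of -0.11, and 7 of the 17 were above 0. Over all genes tested, 95% had an absolute difference of at most 0.61 between this pair of arrays. Pmvk, at 0.93, was the 1 member beyond that. Its signal in untreated Stat6-/-, 2.67, was the lowest of any member and close to the floor of 2.52.

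**Figure D2:**
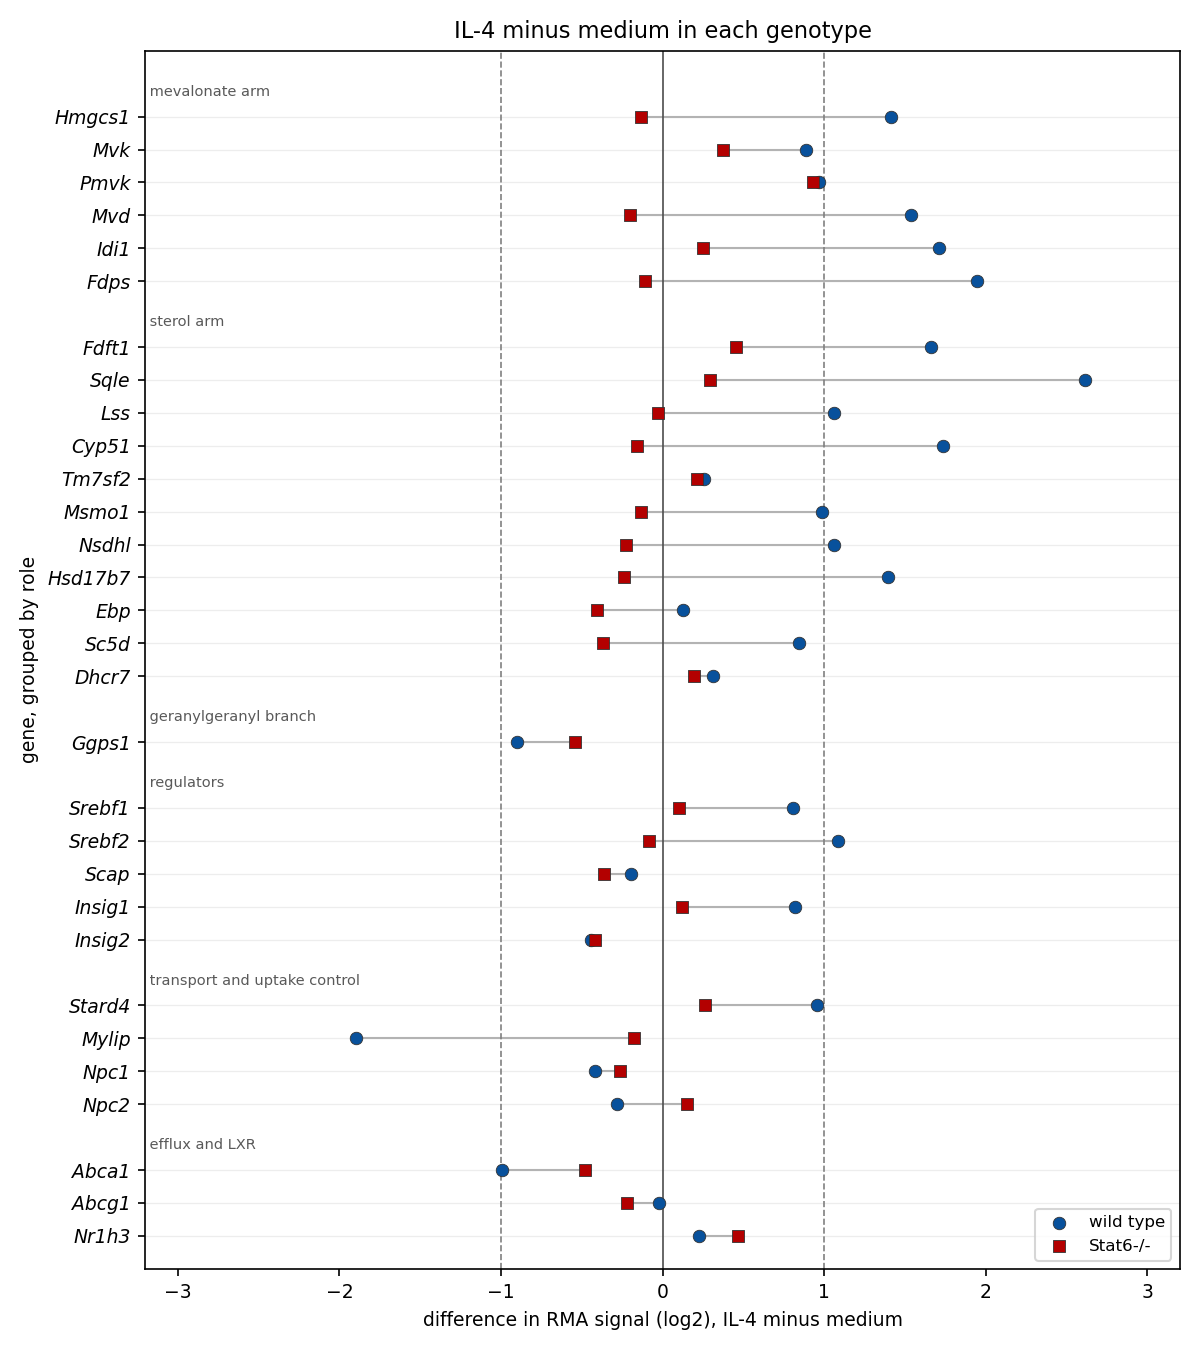
Difference in RMA signal (log2), IL-4 minus medium, of the 30 genes in wild type (blue circles) and Stat6-/- (red squares), 1 array per group; dashed lines mark the 2-fold rule. The blue circles of 11 genes lie at or beyond 1 and that of Mylip beyond -1, while the red squares lie between -0.54 and 0.93.

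Subtracting the IL-4 effect in Stat6-/- from that in wild type gave a difference that passed the rule for 13 members upward and for 1 downward, where 8.97% of 10798 genes passed, 3.2% upward and 5.77% downward. The 13 were the 11 genes that rose in wild type together with Msmo1 (1.12) and Sc5d (1.21), whose Stat6-/- differences were below 0. The largest were Sqle (2.32), Fdps (2.05), Cyp51 (1.89), Mvd (1.74) and Hsd17b7 (1.64), and Mylip stood at -1.72. The members' median was 0.70, against -0.07 over all genes tested. For Fdft1 the value was 1.21 on the brighter probeset and 2.83 on the other. Srebf1 (0.70), Insig1 (0.70) and Stard4 (0.69) did not pass. Upward calls made up 35.7% of the calls over all genes, and 47.7% after renewed quantile normalization.

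The array of wild type with IL-4 enters this difference, the IL-4 effect in wild type and the genotype difference with IL-4, so these are not independent views. Set against each of the other 3 arrays, it was at least 1 higher for 10 of the 30 members, where 2.07% of 10798 genes were, and at least 1 lower for Mylip alone, where 3.07% of genes were. The 10 were Hmgcs1, Mvd, Idi1, Fdps, Fdft1, Sqle, Lss, Cyp51, Hsd17b7 and Srebf2. It was the highest of the 4 arrays for 21 of the 30 members, against 28.2% of all genes, and the lowest for 6, against 35.3%. The other 3 arrays spanned a median of 0.44 over the members and 0.38 over all genes tested.

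Stat6-/- against wild type in medium asks whether the pathway differed before IL-4 was added. By the rule 0 of 30 members were higher and 0 were lower, where 1.45% of 10299 genes passed, 0.301% higher and 1.15% lower. Higher calls were 20.8% of these over all genes, and 37.2% after renewed quantile normalization. The members' median of -0.07, beside -0.11 over all genes tested, turned to 0.072 with that normalization, and the members ran from -0.98 to 0.41. Nr1h3 had the largest difference, -0.98, and reached -1.04 when the arrays were shifted to one median. Next came Pmvk (-0.76), Fdft1 (-0.75) and Stard4 (-0.65), while Mvd (0.41) and Srebf1 (0.28) lay highest. For Fdft1 the other probeset gave 0.26, the opposite direction.

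With IL-4, the same genotype comparison gave 14 members lower and 1 higher in Stat6-/-, where 8.84% of 10433 genes passed, 4.83% lower and 4.01% higher. The 14 were 4 genes of the mevalonate arm, 8 of the sterol arm, Srebf2 and Stard4, and the higher one was Mylip. Sqle was 7.26-fold lower in Stat6-/-, Hmgcs1 4.09-fold, Fdft1 3.88-fold, Cyp51 3.84-fold and Fdps 3.83-fold, while Mylip was 3.52-fold higher. Msmo1 (-1.45), Sc5d (-1.43) and Stard4 (-1.34) were lower here though they had not passed the rule for IL-4 in wild type. The median over the members was -0.77 and over all genes tested -0.0001. Insig2 (0.11), Scap (-0.07), Abcg1 (0.02) and Tm7sf2 (0.12) were nearest to no difference.

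**Figure D3:**
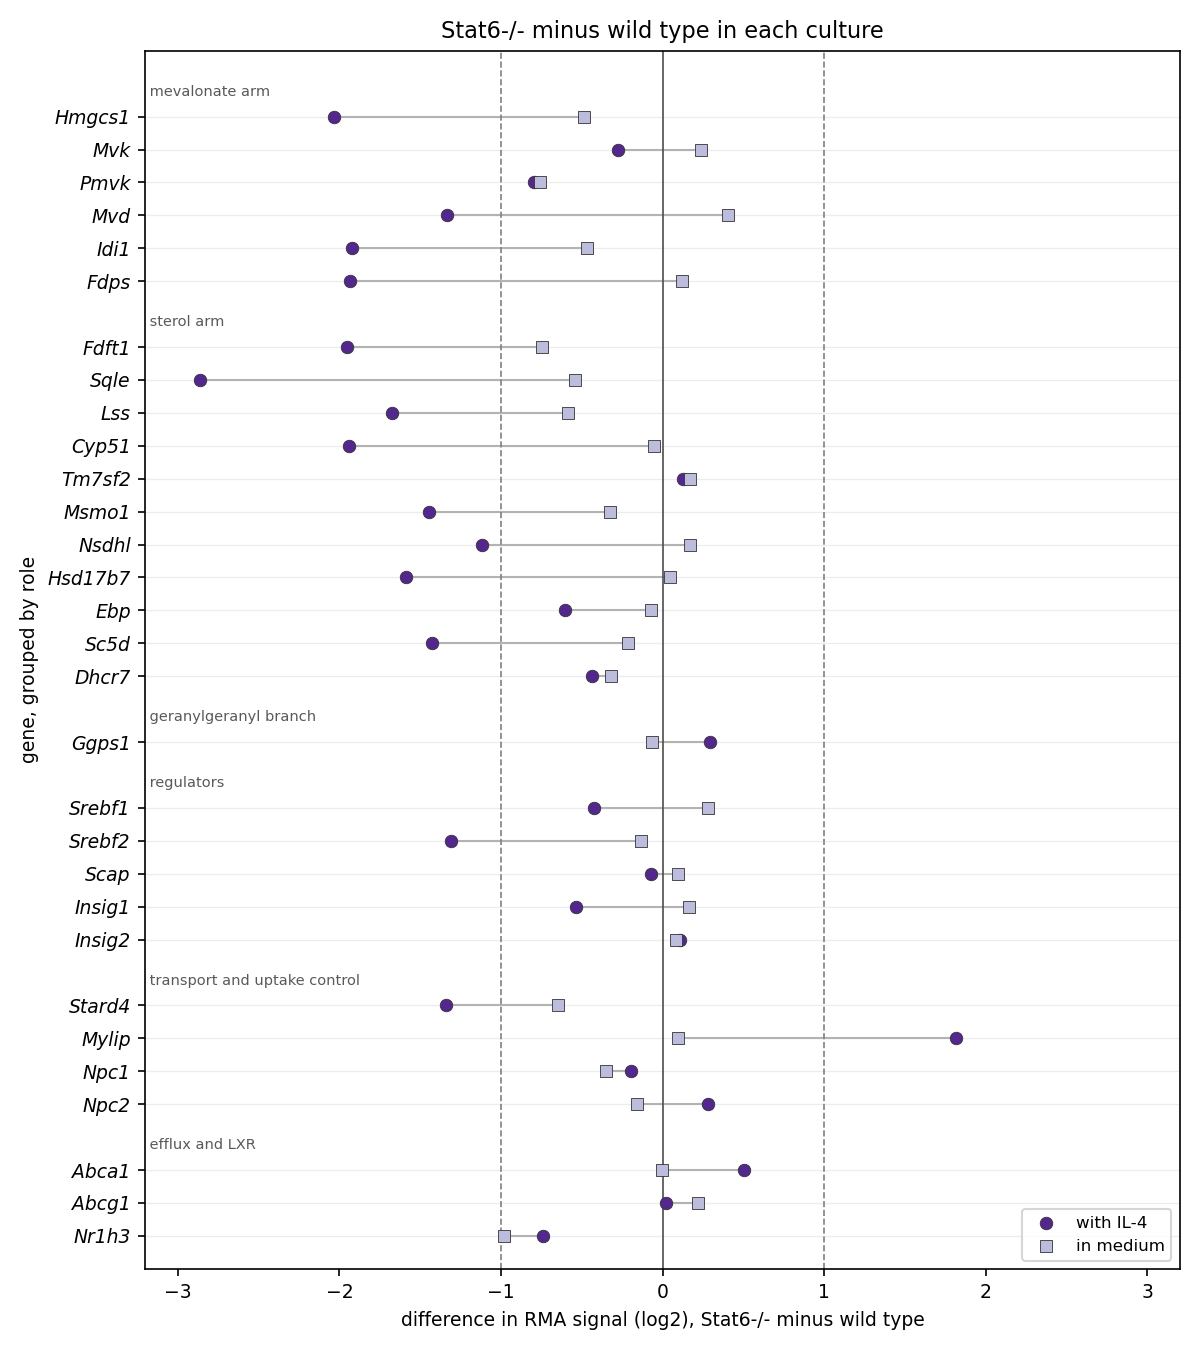
Difference in RMA signal (log2), Stat6-/- minus wild type, of the 30 genes with IL-4 (dark circles) and in medium (pale squares), 1 array per group; dashed lines mark the 2-fold rule. In medium the squares lie between -0.98 and 0.41, while with IL-4 the circles of 14 genes lie beyond -1 and that of Mylip beyond 1.

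Neighbouring genes of lipid metabolism were read from 5 lists, of which 75 of 81 genes were on the arrays. Of 17 tested genes of fatty acid synthesis and other SREBP-controlled genes, 5 rose with IL-4 in wild type and 0 fell. The median of the 17 was 0.57, where 2.96% of all genes tested rose and 6.78% fell. Lpin1 (-0.98), Gpam (-0.54) and Mid1ip1 (-0.33) had differences below 0 that did not pass. The 5 that rose were the desaturases Scd2 (3.07) and Fads2 (1.94), Acaca (1.48) and Fasn (1.46), which build the fatty acid chain, and Tmem97 (1.22), a membrane protein of sterol homeostasis. In Stat6-/- 0 of 17 passed the rule, with a median of -0.24, where 0.355% of all genes passed. With IL-4 the same 5 genes were lower in Stat6-/-, where 4.83% of all genes were, from -1.66 for Acaca to -2.26 for Scd2. For the difference of IL-4 effects 8 passed upward, where 3.2% of all genes did, led by Scd2 (2.93), Fasn (2.10), Fads2 (1.85), Acaca (1.83), Tmem97 (1.46) and Acss2 (1.25). The 1 gene that passed downward was Lpin1 (-1.17), where 5.77% of all genes did.

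Of 14 tested genes of LXR and oxysterol biology, 5 fell with IL-4 in wild type and 0 rose, where 6.78% of all genes fell and 2.96% rose. Their median was -0.51 against -0.11 over all genes. The 18 genes of sterol traffic and lysosomal release, described below, also had a median of -0.51. After renewed quantile normalization the median of the LXR and oxysterol genes was -0.33, and that over all genes 0.02. The other 9 LXR and oxysterol genes did not pass, and among them Lpl (0.77), Scarb1 (0.54) and Lpcat3 (0.22) had differences above 0. The 5 that fell were Cyp27a1 (-1.93), which makes an oxysterol ligand of LXR, Ugcg (-1.82), which makes glucosylceramide, the lipid droplet protein gene Plin2 (-1.18), the phospholipid transfer protein gene Pltp (-1.17) and the nuclear receptor Nr1d1 (-1.15). In Stat6-/- 0 of 15 passed the rule, with a median of -0.20, where 0.355% of all genes passed. With IL-4, Cyp27a1 (2.30), Nr1d1 (1.79) and Ugcg (1.64) were higher in Stat6-/- than in wild type, as were 4.01% of all genes. Lpl, the lipoprotein lipase, was lower in Stat6-/- in medium (-1.03) and with IL-4 (-1.29). For the difference of IL-4 effects 4 of 15 passed downward, where 5.77% of all genes did, Nr1d1 (-1.80), Cyp27a1 (-1.73), Ugcg (-1.27) and Plin2 (-1.04).

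In the remaining lists the counts were not above the share over all genes with IL-4 in wild type, 9.74%. Of 9 genes that process SREBP proteins, 0 passed it in any of the 5 comparisons, and the median in wild type was -0.29. Of 18 genes of sterol traffic and lysosomal release, Gramd1b, a sterol carrier between membranes, fell with IL-4 in wild type (-1.50) and was higher in Stat6-/- with IL-4 (2.21). It also passed downward in the difference of IL-4 effects (-1.55), as did Gramd1a (-1.09). Of 10 genes that use isoprenoids, 0 passed with IL-4 in wild type, with a median of -0.38. In that list Cox10 was lower in Stat6-/- with IL-4 (-1.04), and Coq2 passed downward in the difference of IL-4 effects (-1.03). After renewed quantile normalization the lower calls of Lpl in medium, Lpin1 and Coq2 were lost, and so was 1 of the 2 Gramd1 calls in the difference of IL-4 effects. In that difference 3 in place of 4 LXR and oxysterol genes then passed downward and 1 in place of 0 isoprenoid genes upward, while 4 in place of 5 LXR and oxysterol genes fell in wild type.

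**Figure D4:**
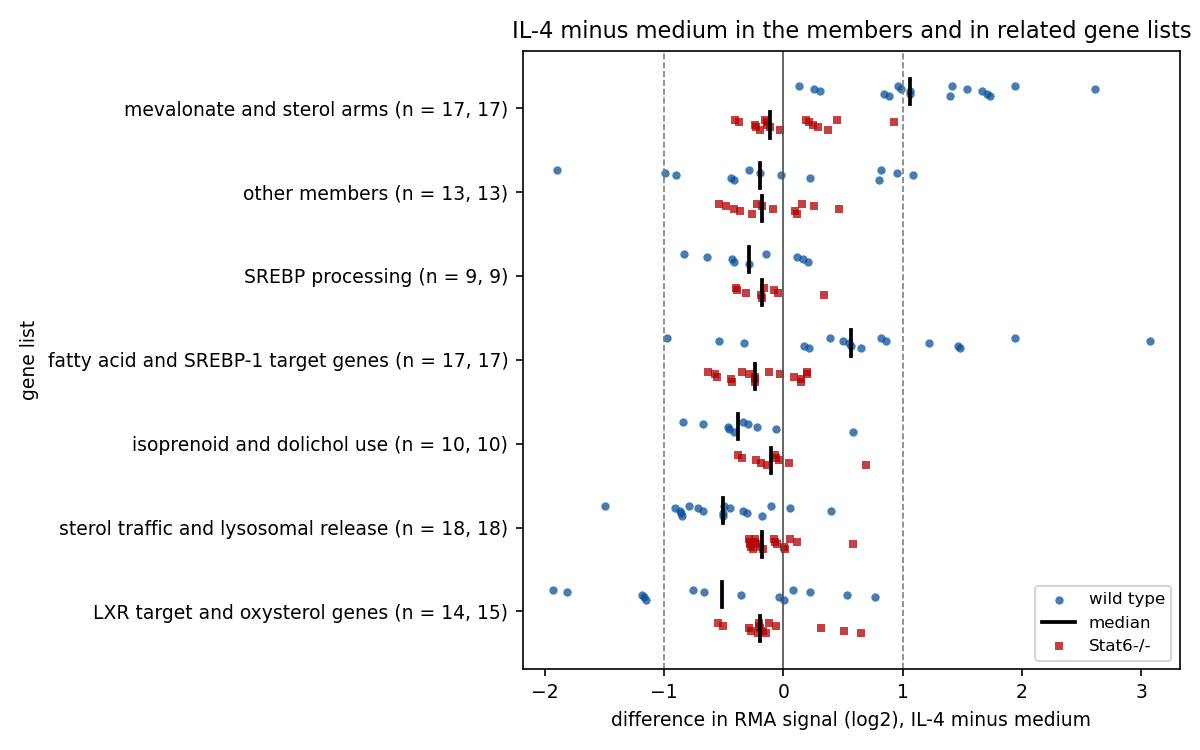
Difference in RMA signal (log2), IL-4 minus medium, of members and related genes whose brighter array reached the floor, in wild type (blue circles) and Stat6-/- (red squares), 1 point per gene with black bars at the median and the numbers of genes in wild type and Stat6-/- beside each name; points are staggered vertically and dashed lines mark the 2-fold rule. The blue median is 1.06 for the mevalonate and sterol arms, against -0.11 over all genes tested. It lies below 0 for the other lists but 1. That list, named for fatty acid and SREBP-1 target genes though it also holds Tmem97, has a median of 0.57.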

How the data were processed

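The deposited table holds log2 signals of 35557 probesets on 4 arrays. Per the submitters' processing notes, Affymetrix Expression Console was used with RMA, a method that corrects background, normalizes by quantiles and summarises probes. The sources used here do not give versions, settings or build, and the log2 base was read from the range of the values. Median signals per array ran from 2.23 to 2.29. Of the probesets 21789 had 1 gene symbol, 1621 several and 12147 none. Each gene was represented by its brightest single-symbol probeset. Differences and calls were computed for 5 comparisons in Python 3.11.15 with pandas 2.3.3. The code was run on simulated arrays with little noise and with shifts well past the rule. That run checks the code and cannot show how reliable the calls on these arrays are. Apart from the summed marker signals, which join different genes in lists of unlike length, signals of different genes were not compared with each other.

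The members, roles, lists, motifs and the rule of size were chosen with earlier results of these data known. Every member is described, and of the related lists those past the rule, up to 6 per list and comparison. The alternatives were quantile normalization again, a common median, lowess removal of the intensity trend (fraction 0.3), no floor, a floor at the 75th percentile, the mean of all probesets and a 1.5-fold rule.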

Additional observations from a re-analysis of the deposited data

Results flagged for a closer look

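For 12 of the 30 members the IL-4 difference had opposite signs in wild type and Stat6-/-, with 1 array on each side, and this difference between genotypes was not tested. Opposite signs were as common among all 10798 genes tested (38.8%) as among the members (40.0%), so the count says nothing particular about them. The IL-4 effect in wild type minus that in Stat6-/- was 2.05 for Fdps, 1.89 for Cyp51, 1.74 for Mvd, 1.64 for Hsd17b7, 1.55 for Hmgcs1, 1.29 for Nsdhl, 1.21 for Sc5d, 1.17 for Srebf2, 1.12 for Msmo1, 1.09 for Lss, 0.53 for Ebp and -0.44 for Npc2. In 11 of these the wild-type difference was above 0 and the Stat6-/- one below, and Npc2 was the reverse.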

How the results depend on the processing

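Over 7 alternatives, 1016 of 1050 differences of single members stayed on their side of the rule, and 0 that passed it changed sign. Part of this was fixed in advance. Without a floor nothing could change, since all members lay above it, and the mean of all probesets could move only Fdft1 and Idi1. The 1.5-fold rule could lose no call. It and the changes of floor left every value, and so its sign, as it was. Of the 11 members that rose in wild type 10 passed under each of the 7 alternatives, and Lss, which is too dim for a floor at the 75th percentile, was lost there. Mylip fell under each. In wild type, quantile normalization again gave 15 members higher, 2 lower and a median of 1.0003. Removal of the intensity trend gave 16 higher and a median of 1.04, and the 1.5-fold rule gave 18 higher and 3 lower. In Stat6-/- the 1.5-fold rule gave 1 member higher. For the genotype difference in medium, 1 member was lower with a common median and 4 under the 1.5-fold rule, and the median turned to 0.072 with quantile normalization again and 0.049 without the intensity trend. With IL-4 its median was -1.21 with the higher floor, over the members bright enough for it. No paired analysis was possible because each group has 1 array.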
